A study of Mus musculus with 25 samples.

Results

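The genes described here encode nuclear subunits of respiratory complex I and were chosen by name. They are the 36 gene symbols of the Nduf families listed for this purpose, and all 36 were found among the 24708 loci of the gene expression tables. The rule uses names and no levels, although it was proposed with earlier results of these data known. The study profiled mouse embryos of the BDF1 strain by sequencing of amplified polyA RNA. At embryonic day 1.5 there were 2 libraries of 2-cell embryos labelled WT, 2 labelled sIVF and 2 labelled IVF. At embryonic day 4.0 there were 3 libraries of blastocysts labelled Fzr1-OE and 2 labelled Control. The meaning of sIVF, the way Fzr1 was overexpressed, the treatment of the Control embryos and the origin of the replicates are not in the labels, so the p-values below measure only the spread between these libraries, which may be technical. The H3K9me3, fat and methylation samples of the series were not analysed here.

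Complex I is the largest enzyme of the mitochondrial respiratory chain. It takes electrons from NADH, passes them along flavin and iron-sulfur centres of a peripheral arm that reaches into the matrix, hands them to ubiquinone and uses the energy to pump protons through a membrane arm. Its catalytic core is built from nuclear and mitochondrially encoded subunits, and the many accessory subunits hold the arms together and are needed for assembly. In the mouse embryo, mitochondria are inherited from the oocyte and respiration is known to increase towards the blastocyst. Of the genes described here, 6 encode core subunits of the peripheral arm, 9 accessory subunits of the same arm, 9 accessory subunits of the proximal membrane arm and 10 of the distal membrane arm. Ndufab1 encodes the mitochondrial acyl carrier protein, and Ndufa4 is now counted with complex IV. The 7 mitochondrially encoded subunits were listed as a reference group, and 0 of them had a row in the tables used here.

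The values are FPKM, fragments scaled to transcript length and to library size, so that levels of genes of different length can be set side by side. Depth, as the tables imply it, was 4742698 to 6377606 fragments at the 2-cell stage and 9324167 to 10483442 at the blastocyst stage. The deposited bounds (2 SD of the estimate) of a typical member were 10.5% to 14.4% of its value in a 2-cell library and 4.82% to 4.91% in a blastocyst library, which covers counting error only. Fzr1 itself, the gene named in the labels, was at 12.7, 15.5 and 17.1 FPKM in the libraries labelled Fzr1-OE and at 16.5 and 16.5 in Control (log2 fold change -0.13, SE 0.16, limma adjusted p = 0.713), so overexpression was not seen at the gene the label names. Most markers of the 2 stages separated as labelled. Summed 2-cell genes (the Zscan4 members, Usp17la and Zfp352) were at 32.2 to 93.5 FPKM in 2-cell and 0.0 to 3.64 in blastocyst libraries. Summed trophectoderm genes were at 10.1 to 22.0 and 3531.4 to 5621.8, in blastocysts mainly Krt8 and Krt18. From WT 2-cell embryos to Control blastocysts 6 of 7 trophectoderm genes were called higher (all loci 45.8%), all but Tfap2c (0.47). Of 5 inner cell mass genes 3 were higher and Fgf4 was lower (-2.07). Of 4 tested primitive endoderm genes 3 were higher and Gata4 was lower (-2.06). Cumulus and granulosa markers summed to at most 3.92 FPKM in any library, with Amh, Has2 and Inha at 0 in all of them. In these bulk samples fewer cells of a type and less RNA per cell cannot be told apart.

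Most members are short genes, and their promoter windows are rich in GC and CpG. By the length that the deposited bounds imply, 27 of the 36 fell in the shortest of 10 equal length classes. RefSeq promoter windows on GRCm38.p6, 250 bases before to 50 bases after a gene's start, were at hand for 33 members, and 3 had none. The median member window had a GC content of 59.0% and 20 CpG, against 52.7% and 7 over all windows. Windows were searched on both strands for 4 motifs of factors known to act on nuclear genes for mitochondria: GCGCATGCG for NRF1, CCGGAAG for ETS factors such as GABPA, AAGATGGCG for YY1 and TCAAGGTCA for ERR. The YY1 letters were found at 5 members (15.2%, against 1.64% of all genes with a window), the ETS letters at 4 (12.1%, against 9.93%), the NRF1 letters at 2 (6.06%, against 1.95%) and the ERR letters at 0 (all genes 0.466%). The NRF1 letters are nearly their own reverse complement, so a single site can match on both strands, as it did at Ndufa11. The windows of all genes were not matched to those of the members for GC or CpG. A match is a description of these letters and not evidence of binding.

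The 5 windows with the YY1 letters are shown because all 5 matches lie on the gene's own strand, 23 to 36 bases after the start. The searched letters contain ATG, and whether these matches lie at the coding start of the genes was not checked. Each is a run of 30 bases from RefSeq, on the gene's strand, 5′ to 3′, with the searched letters in capitals.
Ndufs7 (chr10:80249463-80249492, plus strand): ggccgaggccAAGATGGCGgcgctggcggg
Ndufs4 (chr13:114388045-114388074, minus strand): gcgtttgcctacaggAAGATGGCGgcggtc
Ndufs6 (chr13:73328433-73328462, minus strand): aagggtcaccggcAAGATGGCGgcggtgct
Ndufa9 (chr6:126849096-126849125, minus strand): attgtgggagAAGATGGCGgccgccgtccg
Ndufc1 (chr3:51408914-51408943, minus strand): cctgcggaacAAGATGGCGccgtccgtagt
Of the 5 members that differed between blastocyst groups, 2 had a match, Ndufa8 for NRF1, from 9 bases before its start, and Ndufb7 for ETS, from 20 bases before. Both are shown for that reason, and the Ndufa8 capitals are the reverse complement of the searched letters, since that match lies on the opposite strand.
Ndufa8 (chr2:36049328-36049357, minus strand): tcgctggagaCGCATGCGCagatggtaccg
Ndufb7 (chr8:83566727-83566756, plus strand): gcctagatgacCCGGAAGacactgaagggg

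The complex I genes were abundant at both stages, and unequally so among themselves. The median member stood above 86.5% to 92.4% of the loci detected in a 2-cell library and above 97.2% to 97.5% of those in a blastocyst library. In 2-cell embryos the mean level ran from 1.81 FPKM for Ndufs1, the largest core subunit, to 614.1 for Ndufa2, a small accessory subunit with a thioredoxin-like fold, a ratio of 339. In blastocysts the range was 38.3 FPKM for Ndufs5 to 776.2 for Ndufa5, a ratio of 20.3. After Ndufa2, the highest means in 2-cell embryos were 315.0 FPKM for Ndufb7 and 221.1 for Ndufa1, and after Ndufs1 the lowest were 3.79 for Ndufa10 and 5.22 for Ndufv1. In blastocysts Ndufa6 (773.3) and Ndufb8 (725.8) followed Ndufa5, and Ndufs1 (42.3) and Ndufs4 (75.1) were next to Ndufs5 at the low end.

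**Figure D1:**
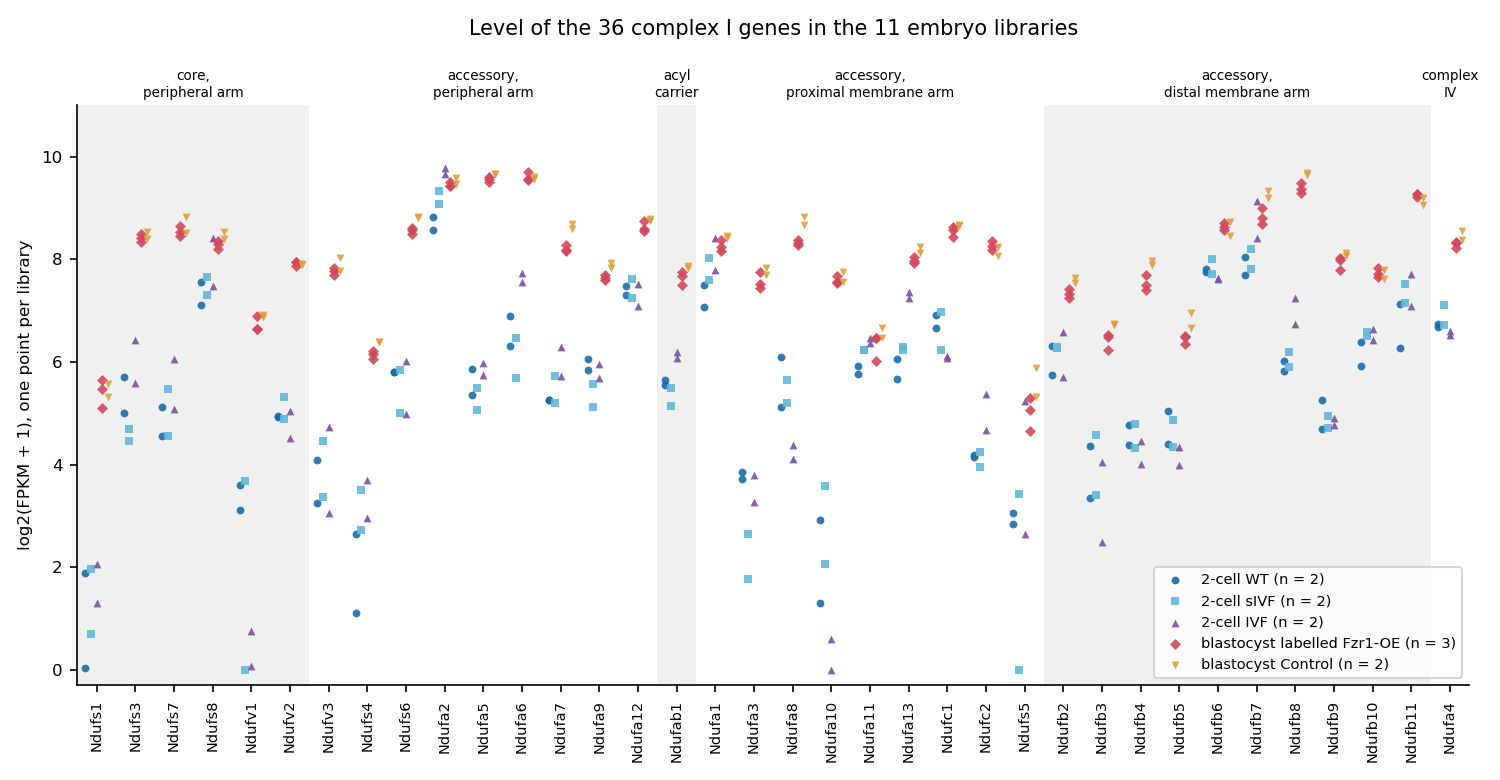
Level of each complex I gene, log2(FPKM + 1), in the 11 libraries (1 point a library; colours and shapes give the group), with genes ordered by their place in the enzyme. The 2-cell points of a gene lie mostly well below its blastocyst points, and spread most for low genes such as Ndufs1, Ndufv1, Ndufa10 and Ndufs5, while Ndufa2 and Ndufa11 are near the same level at both stages.

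A single gene weighed heavily in 2-cell embryos. Ndufa2 alone made up 14.5% to 22.8% of the members' summed FPKM in 2-cell embryos and 6.0% to 6.87% in blastocysts. It was the highest member in all 6 libraries of the 2-cell stage and in none of the blastocyst stage. Between 8 and 10 members reached 100 FPKM in each 2-cell library, against 29 to 33 in each blastocyst library.

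Some low members differed widely between libraries of the same 2-cell group. Ndufv1, the subunit that binds NADH and the flavin, was at 11.8 FPKM in sIVF replicate 1 and listed at 0 in sIVF replicate 2. Ndufa10, a subunit with a kinase-like fold, was at 11 and 3.16 in the sIVF pair. Ndufb3 was at 15.5 and 4.64, and Ndufv3 at 25.5 and 7.35, in the IVF pair. These pairs show how far single libraries of 2-cell embryos can differ for a low gene, and no blastocyst group had a member that differed more than 1.60-fold between its libraries.

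Ndufs5 needs a reservation. Its mm9 locus spans 5477 bases on chromosome 4, and 5452 of them are also covered by the locus BC002163. Ndufs5 was at 7.30 and 6.16 FPKM in WT, 0.000193 and 9.79 in sIVF, 5.30 and 36.8 in IVF, 24, 38.5 and 32.3 in the libraries labelled Fzr1-OE, and 57.8 and 38.9 in Control. BC002163 was at 20.4 and 15.3, 46.8 and 7.67, 14.6 and 2.40, then 400.8, 343.0 and 360.4, and 421.7 and 413.7 in the same order. Reads of the 2 loci cannot be separated from these tables, so the Ndufs5 values are uncertain, and the library where Ndufs5 was near 0 was the 2-cell library where BC002163 was highest. Other members also share bases with another locus whose reads could be mixed with theirs, since the strand used in counting is not given in the sources used here: Ndufs1 with Ino80dos (14704 bases), Ndufa13 with Tssk6 (344), Ndufb11 with Rbm10 (62), and Ndufa2 with Tmco6 and Ndufa10 with Mir6900 (60 each).

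From the 2-cell stage to the blastocyst, nearly the whole complex rose. Between WT 2-cell embryos and Control blastocysts, 35 of the 36 members were higher and 0 lower at an adjusted p under 0.05 (limma on log2(FPKM + 1), Benjamini-Hochberg over 9762 loci), while 45.8% of all loci tested were called higher and 19.6% lower. Also at an unadjusted p under 0.05, 0 members were lower, against 20.5% of all loci. All 36 members had every Control blastocyst library above every WT library, as did 56.4% of all loci. The median member log2 fold change was 2.92, and the median of all loci tested was 0.88. Stage cannot be told apart here from anything else that differs between the 2 sets of libraries, depth included.

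The core subunits of the peripheral arm had a median log2 fold change of 3.33, and 6 of 6 rose. Ndufs1, which carries iron-sulfur clusters, was at 2.71 and 0.0277 FPKM in WT and reached 39.0 and 46.5 in Control blastocysts (log2 fold change 4.48, SE 0.62, adjusted p = 0.000234). Ndufs8, another iron-sulfur subunit, had 186.9 and 137.7 FPKM in WT and 370.3 and 335.1 in Control blastocysts (log2 fold change 1.13, SE 0.28, adjusted p = 0.00612). Both genes were without overlap between the groups, but the first started near the limit of detection and the second was already among the 5 highest members in 2-cell embryos.

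Among the accessory subunits of the peripheral arm 9 of 9 rose, with a median log2 fold change of 3.01. Ndufs4, whose loss in the mouse gives a Leigh-like encephalopathy, was at 5.28 and 1.14 FPKM in WT and 83.3 and 82.2 in Control blastocysts (log2 fold change 4.51, SE 0.49, adjusted p = 5.45e-05). Ndufv3 was at 16.0 and 8.48 and at 258.4 and 217.3 (4.23, SE 0.54, adjusted p = 0.000145). Ndufa2 was at 450.9 and 377.2 and at 763.0 and 705.0 (0.83, SE 0.11, adjusted p = 0.000243). Ndufa2 was therefore the highest member at the start and one of the least changed.

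In the proximal membrane arm 8 of 9 members rose, with a median of 2.65. Ndufa10 was at 1.47 and 6.56 FPKM in WT and reached 215.4 and 186.6 in Control blastocysts, the largest log2 fold change of all members (5.54, SE 0.58, adjusted p = 4.63e-05). Ndufa11 was at 59.7 and 53.1 and at 100.6 and 87.6, the smallest (0.73, SE 0.19, adjusted p = 0.00842). Ndufs5 was the member that missed the threshold (2.65, SE 1.06, adjusted p = 0.0525), while BC002163, which covers its locus, was higher (4.49, SE 0.81, adjusted p = 0.00111). In the distal membrane arm 10 of 10 rose, with a median of 2.26. Ndufb6 was at 223.3 and 215.9 FPKM in WT and reached 421.6 and 348.7 in Control blastocysts (0.80, SE 0.13, adjusted p = 0.000687). Ndufab1 (2.25, SE 0.17, adjusted p = 5.75e-06) and Ndufa4 (1.75, SE 0.15, adjusted p = 1.27e-05) also rose.

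**Figure D2:**
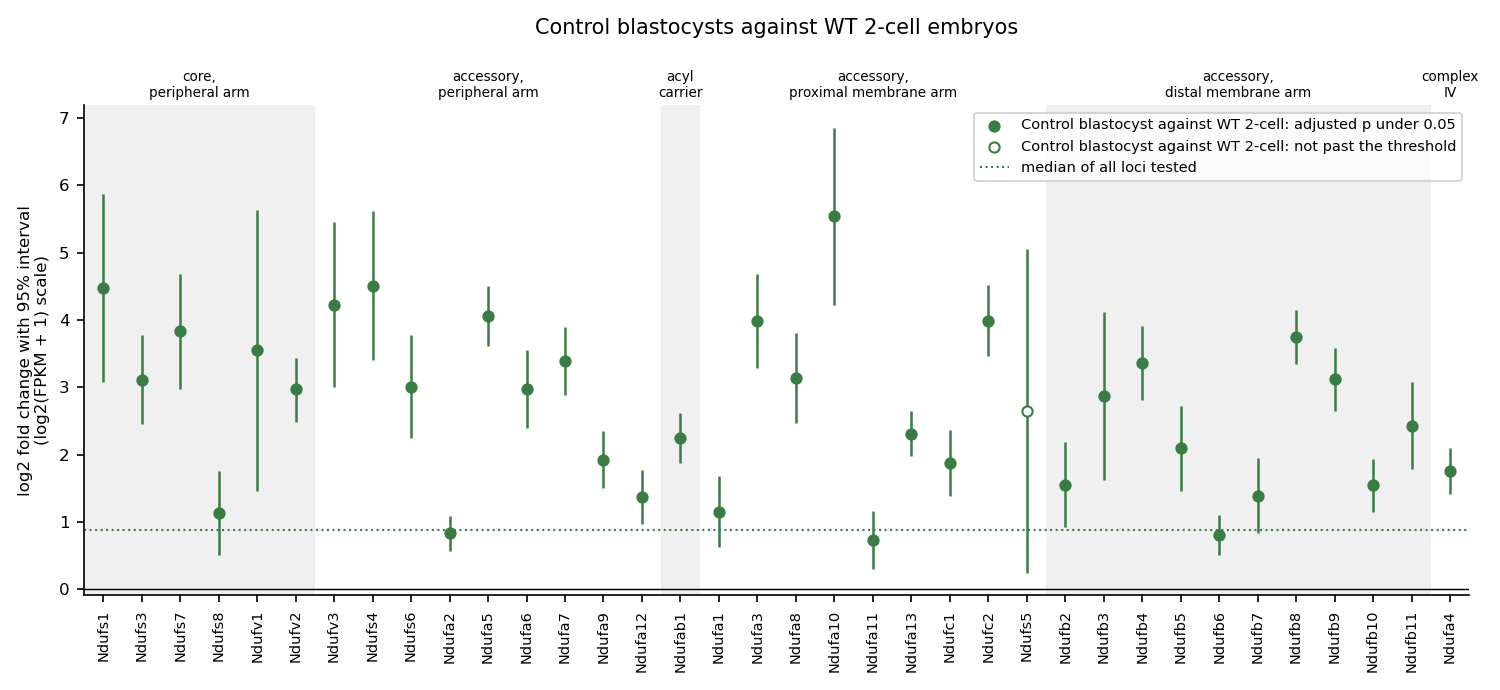
Log2 fold change of each complex I gene from WT 2-cell embryos to Control blastocysts (y axis, log2(FPKM + 1) scale; bars are 95% intervals; filled points have an adjusted p under 0.05). All points lie above 0, from 0.73 for Ndufa11 to 5.54 for Ndufa10, and 33 of the 36 lie above the dotted median of all loci (0.88), the exceptions being Ndufa2, Ndufa11 and Ndufb6.

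The size of the stage difference, and the calls of some members, depended on the scale. Summed over all loci, FPKM came to 298129.4 to 335986.8 at the 2-cell stage and 502931.1 to 529532.2 at the blastocyst stage. With each library rescaled to the same total FPKM, the median of all loci moved from 0.88 to 0.30 and the member median from 2.92 to 2.18, with 28 members higher and 0 lower, and all loci split 3503 higher to 2715 lower in place of 4472 to 1909. With quantile normalization the medians were -0.02 and 2.07, with 29 members higher and all loci at 2829 higher to 3033 lower. Ndufa11 turned to -0.05 and -0.14 on those 2 scales, so no direction can be given for it, and Ndufa1, Ndufa2, Ndufb2, Ndufb6 and Ndufs8 lost their calls on both. With the trend over gene length removed from each library, 25 members were higher and 0 lower, and all loci were at 2856 higher to 2790 lower. The member median was then 1.81, beside 0.09 for all loci, and Ndufa2, Ndufa11 and Ndufb6 were below 0. A member with a larger change was affected too. Ndufv1 (log2 fold change 3.55, SE 0.92) lost its call with rescaling, with the length trend removed and with a pseudocount of 0.1. Its log2 fold change was between 2.21 and 3.78 in all 22 alternatives.

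The members' summed level was also higher in blastocysts than in 2-cell embryos. It was 2643.5 ± 64.9 FPKM in WT, 2980.1 ± 225.1 in sIVF and 3875.9 ± 82.0 in IVF 2-cell embryos (SD, n = 2 each), and 10854.9 ± 245.4 in the libraries labelled Fzr1-OE (n = 3) and 12053.8 ± 425.0 in Control blastocysts (n = 2). As a share of all FPKM in a library the members took 0.869% and 0.871% in WT, 0.934% and 0.879% in sIVF, and 1.21% and 1.24% in IVF. In blastocysts they took 2.11%, 2.13% and 2.09% in the libraries labelled Fzr1-OE and 2.33% and 2.27% in Control. Neither the IVF and WT values nor the 2 blastocyst groups overlapped. The sum is weighted to the highest members. From WT to IVF the mean of Ndufa2 went from 414.1 to 838.6 FPKM and that of Ndufb7 from 235.0 to 452.7. In that comparison 21 members had a log2 fold change above 0 and 15 below.

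**Figure D3:**
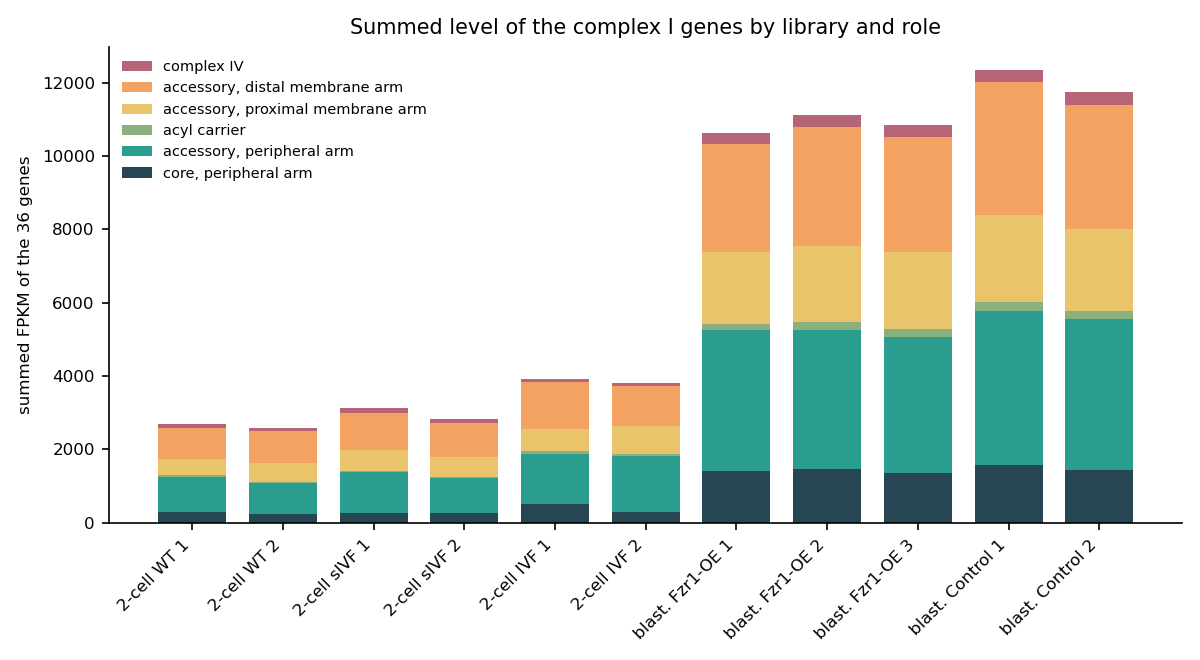
Summed FPKM of the 36 complex I genes in each library (y axis, linear from 0), with segments for the place of the subunits in the enzyme. The 2-cell bars reach 2597.6 to 3933.9 FPKM, highest in the 2 IVF libraries, and the blastocyst bars 10618.3 to 12354.3 FPKM, highest in the 2 Control libraries.

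In 2-cell embryos no member passed the threshold between IVF and WT, but several members stood higher in both IVF libraries and others lower. Of 36 members 0 were called higher and 0 lower (limma, 8246 loci), against 0.0121% and 0.0% of all loci. At an unadjusted p under 0.05, 8 members were higher and 3 lower (22.2% and 8.33% of the members), against 6.86% and 5.55% of all loci. Both IVF libraries lay above both WT libraries for 12 members (all loci 22.8%) and below for 7 (all loci 19.3%). The median member log2 fold change was 0.32, that of all loci 0.09, and 21 members were above 0. Without WT replicate 1 or either IVF replicate the median was 0.23, and with the trend over gene length removed it was 0.11, beside -0.02 for all loci.

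The 3 members of smallest p were all higher in IVF. Ndufa2 had 450.9 and 377.2 FPKM in WT and 805.2 and 871.9 in IVF (log2 fold change 1.02, SE 0.16, adjusted p = 0.0767). Ndufa13, also known as GRIM-19, was at 65.2 and 50.1 and at 151.1 and 164.0 (1.45, SE 0.24, adjusted p = 0.0856). Ndufb8 was at 55.8 and 64.1 and at 106.2 and 150.8 (1.07, SE 0.27, adjusted p = 0.160). In each of the 3 the groups did not overlap. Scaled to the upper quartile Ndufa2 and Ndufa13 passed the threshold, where 17 of 8265 loci were called higher and 4 lower. Ndufa2 also passed with a minimum mean level of 5 FPKM, where 12 of 4625 loci were called higher and 9 lower.

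Other members went the opposite way by similar or larger amounts. Ndufv1 had 7.69 and 11.1 FPKM in WT and 0.687 and 0.0488 in IVF (log2 fold change -2.95, SE 1.10, adjusted p = 0.342). Ndufa8, which sits on the intermembrane space side of the enzyme, was at 33.6 and 67.7 in WT and 16.2 and 19.7 in IVF (-1.37, SE 0.39, adjusted p = 0.215). The values in IVF did not all go one way: by role the medians were 0.63 for the core subunits, 0.25 and 0.58 for the accessory subunits of the peripheral and proximal membrane arms, and -0.01 for the distal membrane arm. Of the marker lists, all 4 tested 2-cell stage genes were below 0 in IVF against WT (median -1.11) and all 6 tested oocyte genes above 0 (median 0.56), with 0 passing the test. In sIVF against WT the 2-cell stage genes were split 2 to 2 (median 0.07) and all 6 oocyte genes were above 0 (median 0.61), while in sIVF against IVF all 4 tested 2-cell stage genes were above 0 (median 1.03) and the oocyte genes were split 3 to 3 (median -0.03), again with 0 passing. The part of these markers in the differences was not tested.

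Between sIVF and WT the members differed little. Of 36, 0 were called higher and 0 lower, as were 0.0% and 0.0% of all loci. At an unadjusted p under 0.05, 1 was higher and 1 lower, against 4.61% and 2.49% of all loci. The groups were without overlap for 7 members higher in sIVF (all loci 20.6%) and 4 lower (all loci 15.3%), and the median was 0.12 beside 0.06 for all loci. Its sign rested on single libraries: it was -0.06 without sIVF replicate 1 and -0.05 without WT replicate 2, and 0.26 without sIVF replicate 2. The smallest p belonged to Ndufa2, at 640.3 and 538.9 FPKM in sIVF (0.51, SE 0.16, adjusted p = 0.548). Next was Ndufa3, a short membrane protein, at 5.30 and 2.40 in sIVF and 13.4 and 12.2 in WT (-1.57, SE 0.51, adjusted p = 0.550), and then Ndufa9, which binds NADPH near the ubiquinone site, at 46.7 and 33.6 in sIVF and 65.8 and 56.2 in WT (-0.61, SE 0.29, adjusted p = 0.739). The WT libraries are shared by this comparison and the one before it.

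Set directly against IVF, sIVF differed by no member past the threshold, and 22 of the 36 had a value below 0. In this comparison 0 were called higher and 0 lower (all loci 0.0% and 0.0%), and an unadjusted p under 0.05 was reached by 2 members higher and 9 lower (all loci 6.29% and 5.52%). The groups were without overlap for 5 members higher in sIVF (all loci 21.7%) and 12 lower (all loci 21.0%), and the median was -0.20 beside -0.02. That tilt rested on 1 library: without sIVF replicate 2 the median was -0.02, with 18 members below 0 and 18 above, and without sIVF replicate 1 it was -0.39. Ndufa6, a subunit of the LYR family that binds the acyl carrier protein, was at 50.6 and 87.9 FPKM in sIVF and 211.7 and 188.1 in IVF (-1.57, SE 0.32, adjusted p = 0.130). Ndufa13 was at 76.8 and 74.4 in sIVF (-1.05, SE 0.24, adjusted p = 0.150), and Ndufs3, a core subunit, at 20.9 and 24.7 in sIVF and 84.7 and 47.0 in IVF (-1.43, SE 0.38, adjusted p = 0.223).

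**Figure D4:**
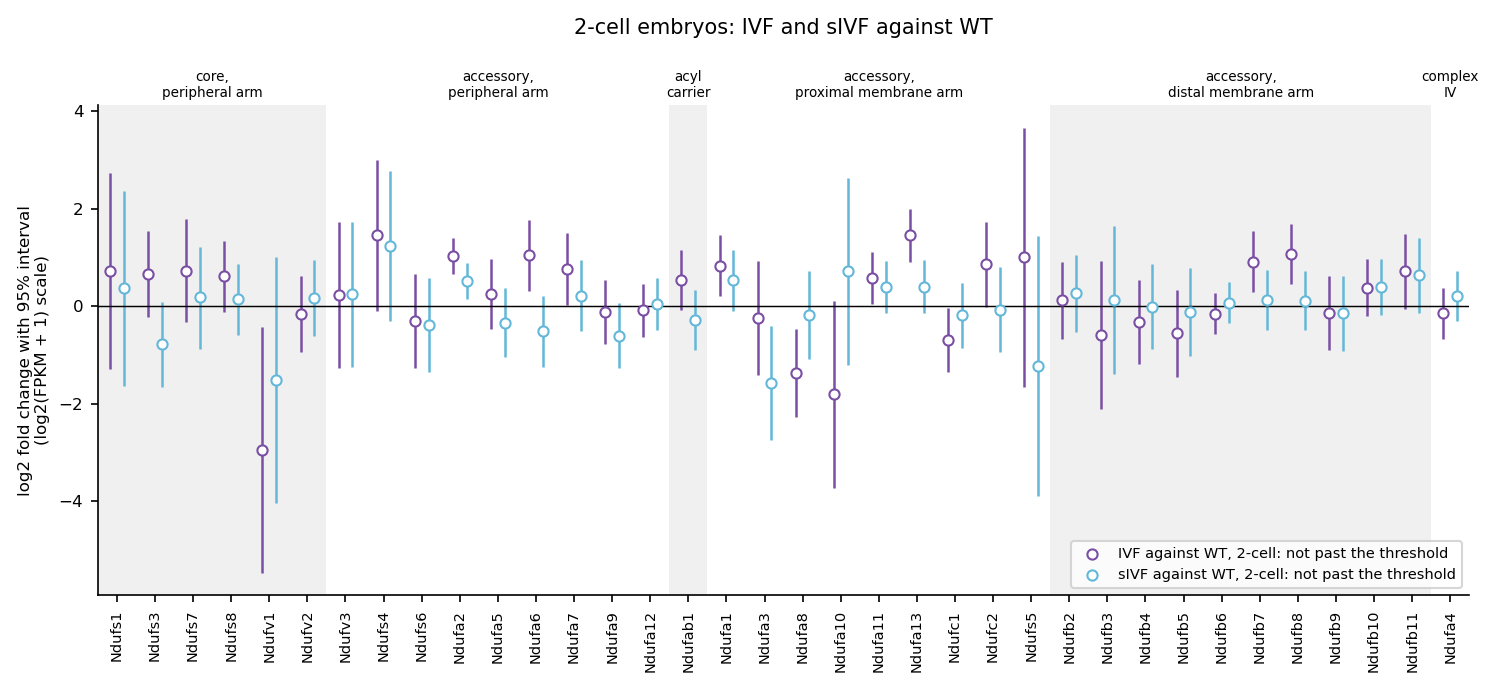
Log2 fold change of each complex I gene in 2-cell embryos (y axis, log2(FPKM + 1) scale; bars are 95% intervals; open points did not pass an adjusted p of 0.05), IVF against WT in purple and sIVF against WT in light blue, both against the same 2 WT libraries. Intervals are wide for low genes such as Ndufs5 and Ndufv1 and narrow for Ndufa2 and Ndufb6, and the IVF points run from -2.95 for Ndufv1 to 1.45 for Ndufa13 and Ndufs4.

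In blastocysts the complex I genes were slightly lower in the libraries labelled Fzr1-OE than in Control. Of the 36 members 5 fell and 0 rose (limma, adjusted p under 0.05 over 9439 loci), against 1.92% and 2.29% of all loci. At an unadjusted p under 0.05, 16 were lower (all loci 9.35%) and 0 higher (all loci 10.4%). The log2 fold change was below 0 for 30 members (all loci 49.3%), with a median of -0.18 beside 0.01 for all loci. All 3 libraries labelled Fzr1-OE lay below both Control libraries for 21 members (all loci 18.4%) and above for 1, Ndufb11 (all loci 19.0%).

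The 5 members that fell belong to 3 places in the enzyme, and none is a core subunit. Ndufa7, of the peripheral arm, was at 284.5, 289.6 and 311.4 FPKM in the libraries labelled Fzr1-OE and at 410.5 and 383.2 in Control (log2 fold change -0.43, SE 0.07, adjusted p = 0.0110). Ndufa8, of the proximal membrane arm, was at 318.8, 308.1 and 329.4 and at 450.3 and 405.0 (-0.42, SE 0.07, adjusted p = 0.0120). For both genes the highest Fzr1-OE library was below the lowest Control library. The other 3 are subunits of the distal membrane arm. Ndufb7, which like Ndufa8 faces the intermembrane space, was at 409.2, 508.0 and 444.0 and at 647.1 and 584.1 (-0.44, SE 0.09, adjusted p = 0.0296). Ndufb4 was at 166.9, 205.5 and 180.2 and at 235.7 and 250.3 (-0.40, SE 0.09, adjusted p = 0.0463). Ndufb8 was at 623.1, 717.7 and 661.1 and at 823.7 and 803.2 (-0.29, SE 0.07, adjusted p = 0.0477), again without overlap.

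The remaining members lay between -0.60 and 0.12. Ndufs5 had the lowest value (-0.60, SE 0.21, adjusted p = 0.157), with the reservation on its locus given above, and BC002163 was at -0.18 (SE 0.08, adjusted p = 0.217). Ndufb11, an X-linked subunit of the distal membrane arm, was at 621.3, 590.0 and 619.5 FPKM in the libraries labelled Fzr1-OE and 586.4 and 534.9 in Control (0.12, SE 0.06, adjusted p = 0.321). Of the 6 core subunits 0 passed, their values ran from -0.18 to 0.02, and the median was -0.09, beside -0.27 for the distal membrane arm. Whether the arms differed from each other was not tested.

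**Figure D5:**
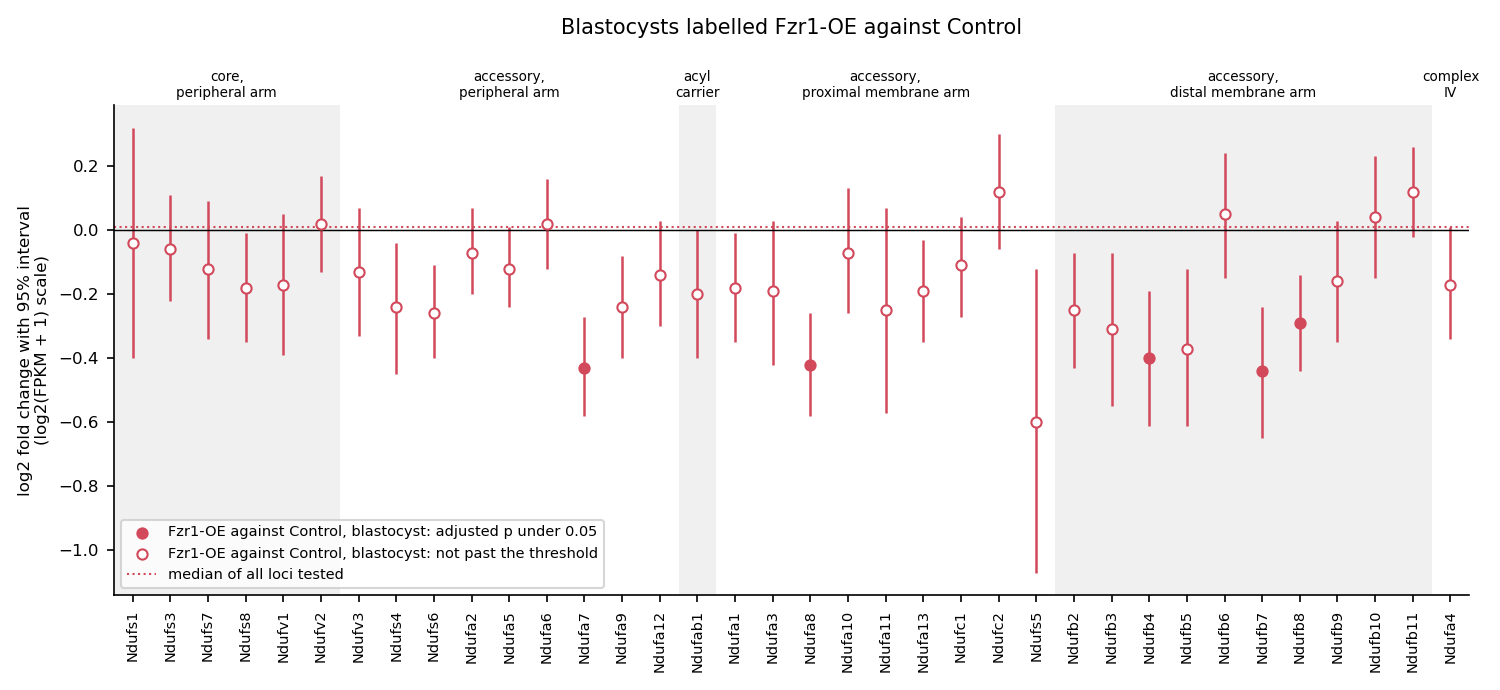
Log2 fold change of each complex I gene in blastocysts labelled Fzr1-OE (n = 3) against Control (n = 2) (y axis, log2(FPKM + 1) scale; bars are 95% intervals; filled points have an adjusted p under 0.05; the dotted line is the median of all loci, 0.01). The 30 points below 0 include the 5 filled ones, Ndufa7, Ndufa8, Ndufb4, Ndufb7 and Ndufb8, between -0.44 and -0.29.

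These 5 calls depended on single libraries, on the filter and on the variance model. Without Control replicate 1 there were 0 calls, without Control replicate 2 there was 1, without Fzr1-OE replicate 3 there were 2 and without Fzr1-OE replicate 1 there were 3. There were also 0 without a filter on low values, where 0 of 16317 loci were called in either direction. Without the intensity trend in the variance there were 0, with 30 of 9439 loci called higher and 11 lower. With the replicate number as a block there were 0, with 23 of 9439 loci called higher and 24 lower. In each of these fits the 5 log2 fold changes stayed below 0. Leaving out 1 library could not turn them, since the groups did not overlap for any of the 5. The filter and the intensity trend do not alter a fold change. The member median was between -0.21 and -0.13 in all 15 alternatives. Markers of cell types also differed between the groups, some lower and some higher in the libraries labelled Fzr1-OE. Of the trophectoderm markers 4 of 7 fell in the libraries labelled Fzr1-OE (Krt18, Krt8, Elf5 and Eomes), none was at 0 in any blastocyst library, and their sum was 3531.4 to 3599.0 FPKM there and 5583.5 to 5621.8 in Control. The other 3 did not pass: Gata3 was at -0.27, Cdx2 at 0.06 and Tfap2c at 0.25. Of 3 tested primitive endoderm genes Gata6 rose (0.72, SE 0.16, adjusted p = 0.0386), and the 2-cell gene Zfp352, listed at 0 in both Control libraries, was at 2.15, 3.64 and 2.96 FPKM in those labelled Fzr1-OE (adjusted p = 0.00603). Inner cell mass genes were above 0 for 4 of 5 (median 0.23), with 0 passing. With each of the 5 libraries left out in turn, Krt8 and Krt18 passed in 5 of the 5 fits, Zfp352 in 4, Elf5 in 2, Eomes in 1 and Gata6 in 0. The part of these marker differences in the complex I values was not tested.

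Other genes of the respiratory chain were taken from lists chosen by function, and some of them fell too. In blastocysts labelled Fzr1-OE against Control, 1 of 4 complex II genes fell, Sdhb (-0.41, SE 0.08, adjusted p = 0.0221), as did 2 of 9 of complex III, 3 of 10 of complex IV and 4 of 15 of ATP synthase, and 0 rose, against 1.92% of all loci called lower and 2.29% higher. These 10 calls depended on the fit as those of complex I did. Without a filter on low values, without the intensity trend and with the replicate block 0 were left, in fits with fewer or 0 calls over all loci. Without Fzr1-OE replicate 3 there were 3. Cox6b1, of complex IV, was at 1332.8, 1421.7 and 1402.1 FPKM against 1910.0 and 1878.2 (-0.45, SE 0.05, adjusted p = 0.00127). The medians of the 4 lists were -0.31, -0.07, -0.21 and -0.16. Of 15 complex I assembly factors 0 passed, with 12 above 0, 3 below and a median of 0.15. Of 11 tested regulators of nuclear genes for mitochondria 0 passed, with 11 above 0 and a median of 0.13. In lists of this size 0 calls is near the share of all loci. Of 10 genes of mitochondrial import, outer membrane and matrix 1 rose, Tomm20, a receptor of protein import (0.47, SE 0.08, adjusted p = 0.0131), and 0 fell. Leaving out 1 library at a time, Cox6b1 passed in 5 of 5 fits, Tomm20 in 3 and Sdhb in 2. The difference between these lists and the complex I genes was not tested.

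In the 2-cell comparisons 0 genes of any of these lists passed. From WT 2-cell embryos to Control blastocysts 4 of 4 complex II, 9 of 9 complex III, 9 of 10 complex IV and 13 of 15 ATP synthase genes rose and 0 fell, together 35 of 38, where 45.8% of all loci were called higher and 19.6% lower. With libraries rescaled to the same total, 2, 8, 8 and 12 rose, and Cox7a2 of complex IV and Atp5g1 and Atp5j2 of ATP synthase fell. All loci were then at 3503 higher to 2715 lower. With the trend over gene length removed, 25 of the 38 rose and 4 fell, where all loci were at 2856 higher to 2790 lower. The assembly factors were more mixed, with 7 of 15 higher and 2 lower (7 and 4 after that rescaling). Tmem126b, listed at 0 in both WT libraries, was at 67.1 and 57.6 FPKM in Control blastocysts (adjusted p = 1.04e-05), and Timmdc1 was at 33.6 and 33.8 in WT and 13.6 and 18.6 in Control blastocysts (-1.04, SE 0.24, adjusted p = 0.00426). Of 10 tested regulators 1 was higher and 4 were lower, among them Yy1, at 47.0 and 53.9 FPKM in WT and 12.8 and 10.7 in Control blastocysts (-2.01, SE 0.20, adjusted p = 3.82e-05), and Gabpa (-1.70, SE 0.25, adjusted p = 0.000331). Nrf1 was at 10.2 and 5.79 in WT and 9.73 and 14.6 in Control blastocysts (0.57, SE 0.32, adjusted p = 0.143).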

How the data were processed

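Gene tables in the layout of Cufflinks were deposited for 11 RNA libraries, with FPKM and its bounds per locus computed by the authors, per the file headers. Tools listed in the submitters' processing notes, with no roles, include Trim Galore 0.6.4, Cufflinks 2.2.1, Cuffdiff and HISAT2 2.1.0, and the build is mm9. No counts were used: fragment numbers were derived from the bounds, and replicates were not pooled. Groups come from the genotype and stage labels. Loci whose mean reached 1 FPKM were tested with limma 3.58.1 (R 4.3.3) on log2(FPKM + 1) with an intensity trend, in 3 fits (blastocyst, 2-cell, and all 11 libraries for stage), with Benjamini-Hochberg adjustment over all loci and a call at 0.05. Data were also simulated with few loci changed, all at 5 FPKM or more. Of 2-fold changes the fit recovered 86% in blastocysts (9439 loci), 11% between IVF and WT (8246 loci) and 12% between stages (9762 loci). Of 4-fold changes it recovered 100%, 57% and 58%, with 15, 3 and 0 false calls. The values between stages do not describe the real stage fit, where 45.8% of loci were called higher. Members named are those that passed, the extremes in level and in fold change, those of smallest p where none passed, and those differing over 3-fold within a group; in lists up to 3 that passed. The members, the lists and the tests were chosen with earlier results of these data known. Python 3.11.15 was used for tables and figures. Alternatives covered the pseudocount, filters, scaling, the trend, gene length, the replicate block and leaving out libraries.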

Additional observations from a re-analysis of the deposited data

How the results depend on the processing

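Of the blastocyst calls, 5 in the fit reported, 0 were left with no filter on low values, no intensity trend or the replicate block. Over all loci, calls went from 216 higher and 181 lower to 0 and 0, 30 and 11, and 23 and 24 in the same fits. Leaving out Fzr1-OE replicate 1, 2 or 3 gave 3, 5 and 2 member calls. Between IVF and WT 1 member was called higher with a filter of 5 FPKM (all loci 12 higher and 9 lower of 4625). With upper-quartile scaling 2 were called higher (all loci 17 higher and 4 lower of 8265), in place of 0. The member median was 0.50 with upper-quartile scaling, beside 0.24 for all loci. With the length trend removed it was 0.11, beside -0.02 for all loci. Between stages the median was 2.07 with quantile normalization, 2.74 with upper-quartile scaling, 2.18 when rescaled to equal totals and 1.81 with the length trend removed, and leaving out single libraries gave 2.62 to 2.95. Ndufa11 reversed to -0.14, -0.05 and -0.13 with quantile normalization, rescaling and the length trend removed, and with the last Ndufb6 reversed to -0.24 and Ndufa2 to -0.01. Rescaled to equal totals, the members' sum was 8700.4 in WT, 9066.6 in sIVF, 12215.8 in IVF, 21128.4 in the libraries labelled Fzr1-OE and 23010.2 in Control. Without Ndufa4 it was 2539.9 in WT, 3782.4 in IVF and 10541.4 in the libraries labelled Fzr1-OE. Except for the rescaling and the sum without a member, whose construction moves the value, the cause was not tested. Replicate numbers are shared between groups, and the labels do not say whether they pair the libraries. Differences between replicates 1 and 2 correlated over loci at -0.005, 0.074 and -0.003 between 2-cell groups. Between blastocyst groups the value was -0.007, with Fzr1-OE replicate 3 not used. These values gave no sign of pairing, but a single difference per group cannot show that the libraries are unpaired. The block changed no call of a complex I member in the other comparisons. Between stages it took the calls over all loci from 4472 higher and 1909 lower to 4183 and 1762, and the assembly factor Ndufaf5 lost its call. Groups of 2 and 3 limit what these fits can detect, and 2-cell libraries, with fewer fragments, have the wider counting error.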

Other observations

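Among the complex I assembly factors, Ecsit, which takes part in the assembly of the membrane arm, was at 3.03 and 0.894 FPKM in WT, 3.69 and 0.724 in sIVF and 19.1 and 21.0 in IVF 2-cell embryos (IVF against WT log2 fold change 2.93, SE 0.69, limma adjusted p = 0.152; sIVF against IVF -2.89, SE 0.69, adjusted p = 0.168). The 2 IVF libraries stood near the blastocyst level of 22.1 to 26.8 FPKM. Ecsit was picked after its values were seen and did not pass the threshold.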
